A study of Mus musculus with 35 samples.

Results

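Small RNA of round spermatids, the early haploid germ cells of the testis, was compared between Smg6-cKO and control mice. These were the 6 of 35 samples of the series whose labels give small RNA sequencing of isolated round spermatids, with 3 libraries in each group. All features of 4 deposited tables were taken, namely miRNAs, tRNA fragments, piRNA clusters and genomic repeats, and a blank was read as 0. cKO mice were Smg6 fx/fx;Ngn3Cre+ and control mice Smg6 fx/fx;Ngn3Cre- or Smg6 fx/wt;Ngn3Cre-, littermates of mixed C57Bl/6J and SV129 background, all adult. The floxed exon is exon 9 of Smg6, and the Neurogenin 3 promoter drives the Cre in early postnatal spermatogonia, so that somatic cells of the testis keep the gene. Control mice carry 1 or 2 floxed alleles and no Cre, and a Cre-positive control is not among these groups. Cells were enriched from testes by sedimentation through a BSA gradient and were not sorted by a marker, and the sources differ on how many testes went into a sample. In bulk RNA of this kind, fewer cells of a type and less RNA per cell cannot be told apart.

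SMG6 is the endonuclease of nonsense-mediated RNA decay, and it accumulates in the chromatoid body, a cytoplasmic granule of round spermatids that also holds piRNAs and their PIWI partners. Round spermatids carry several kinds of small RNA. miRNAs are cut from hairpins and guide Argonaute proteins to messages through their seed. piRNAs, slightly longer, are cut from long single-stranded precursors of genomic clusters. Clusters transcribed at the pachytene stage are mostly intergenic and give most piRNAs of adult testis, while those active earlier mostly overlap protein-coding genes and take their name. tRNA fragments are pieces of mature tRNAs, often from the 5′ end or from the 3′ end with its added CCA.

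The sequences below belong to the miRNAs and tRNAs on which the results turn. Those of miRNAs are from RefSeq (GRCm38.p6), where 215 of the 256 miRNAs tested were matched, and capitals mark the seed, bases 2 to 8. miR-34b-5p and miR-449a-5p belong to a family of meiotic and haploid germ cells and share a seed. miR-16-5p, miR-15b-5p and miR-322-5p share another, though they moved in different directions. miR-184-3p was the abundant miRNA with the largest fall, and miR-34c-5p, the leading miRNA of control cells, is a further member of the first family.
miR-34b-5p: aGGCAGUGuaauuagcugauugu
miR-449a-5p: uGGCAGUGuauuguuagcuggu
miR-16-5p: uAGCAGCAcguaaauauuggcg
miR-15b-5p: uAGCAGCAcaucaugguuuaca
miR-322-5p: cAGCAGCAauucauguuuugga
miR-184-3p: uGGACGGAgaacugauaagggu

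The let-7 miRNAs below share a seed and differ by few bases, yet let-7c-5p and let-7e-5p rose while let-7a-5p did not pass the test. The 4 after them are typical of leukocytes (miR-223-3p, miR-146a-5p) or of somatic gonad cells (miR-10b-5p, miR-99a-5p), and all rose.
let-7a-5p: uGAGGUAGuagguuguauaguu
let-7c-5p: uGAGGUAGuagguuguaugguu
let-7e-5p: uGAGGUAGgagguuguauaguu
miR-223-3p: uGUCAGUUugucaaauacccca
miR-146a-5p: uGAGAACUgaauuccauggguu
miR-10b-5p: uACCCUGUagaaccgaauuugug
miR-99a-5p: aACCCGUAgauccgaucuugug

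For tRNAs, bases from the ends of the most common gene copy, 30 at each end shown and without the CCA that is added later, are from the same assembly, since fragments of these ends fell. The Glu-TTC copy lies at chr13:23463535-23463606 on the plus strand and the Asp-GTC copy at chr1:171037029-171037100 on the minus strand. The shown sequence is held by 4 of 8 Glu-TTC genes and 13 of 16 Asp-GTC genes, so a fragment cannot be assigned to one gene.
Glu-TTC, last bases: gcggcccgggttcgactcccggtgtgggaa
Asp-GTC, first bases: tcctcgttagtatagtggtgagtatccccg
Asp-GTC, last bases: gagaccggggttcgattccccgacggggag

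Libraries held 141642 to 306864 miRNA counts, 42781 to 105677 tRNA fragment counts, 5086180 to 12372513 counts in piRNA clusters and 1222094 to 2807536 in repeats. The libraries carry the numbers 15, 16 and 17 (cKO) and 18, 19 and 20 (control). Small RNA tables hold no Smg6 mRNA, so these labels could not be checked against the deleted gene. In mRNA libraries, which the study states were made from the same samples, the Smg6 total over all exons was 7671, 8184 and 7956 normalised counts in cKO and 8407, 5553 and 9061 in control (edgeR adjusted p = 0.798 for a log2 fold change of 0.05 with SE 0.16), and the deleted exon was not counted apart. The libraries did have the make-up of germ cells, with miR-34c-5p and miR-16-5p leading the miRNAs and piRNA clusters holding almost all counts.

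Of the counts in the miRNA, tRNA and piRNA cluster tables together, piRNA clusters took 94.8, 96.3 and 94.3% in cKO libraries 15, 16 and 17 and 96.9, 97.0 and 97.0% in control. miRNAs took 3.91, 2.92 and 4.09% in cKO and 2.41, 2.31 and 2.41% in control, a difference of the means of 1.27 percentage points (SD 0.629 in cKO and 0.0580 in control, n = 3 each). tRNA fragments took 1.31, 0.810 and 1.64% in cKO and 0.732, 0.673 and 0.571% in control. For each kind the groups did not overlap, and library 16 lay nearest to control. The exact two-sided permutation test gave p = 0.1 for each, which is the smallest value that 3 against 3 libraries allow.

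This difference in make-up sets the scale of all that follows. Log2 fold changes below are cKO over control after TMM scaling within one table, which sets the bulk of a kind's features near 0, and normalised counts are counts on that scale. Scaled by the total of its own table alone, the median miRNA moved from 0.05 to 0.66, the median tRNA fragment from -0.01 to 0.54, the median cluster from 0.05 to 0.33 and the median repeat from 0.11 to 0.37. Scaled by one total for all small RNA, the medians were 1.28, 1.47, 0.31 and 0.40. A miRNA that fell below is thus one that fell relative to other miRNAs, and where the direction of a called miRNA that is named below turned on another scale this is said beside it.

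Markers of other cells moved with the groups and with single cKO libraries. miRNAs of blood leukocytes and macrophages made up 5.13, 2.81 and 7.21% of miRNA counts in cKO libraries 15, 16 and 17 and 1.48, 1.49 and 1.60% in control. miRNAs of smooth muscle and peritubular cells made up 0.871, 0.106 and 0.561% and 0.0685, 0.0687 and 0.0860%, and those of somatic gonad cells 6.64, 4.47 and 10.4% and 1.38, 1.10 and 1.55%. Library 16 was thus close to control in the muscle list and between the groups in the other lists. cKO libraries also differed more among themselves than control libraries did, by the chi-square of a pair of libraries over its degrees of freedom. For miRNAs it was 30.7 to 94.4 in cKO and 2.11 to 4.79 in control, and for tRNA fragments 12.7 to 37.0 and 2.58 to 8.65. For clusters it was 26.7 to 151 and 6.08 to 15.3, and for repeats 7.86 to 65.8 and 2.35 to 3.3. Many results that lean on libraries 15 and 17 are therefore also given for library 16 alone against the 3 control libraries, a fit that assumes that its spread is that of control and in which fewer features pass the count filter.

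In the miRNA table, 64 of the 256 miRNAs tested were higher in cKO (25.0%) and 46 were lower (18.0%) by edgeR's quasi-likelihood test, with 0.05 as the highest adjusted p that counted as a call. Those that rose had a median of 37.4 normalised counts in control and those that fell a median of 258. Of those that rose, 23 reached 10 counts in at most 1 control library and so passed the count filter through cKO, and without these the median was 126. The 46 that fell held 77.2% of all miRNA counts in control and 49.8% in cKO. For 137 miRNAs (53.5%) the groups did not overlap. Scaled by the miRNA total instead, 112 miRNAs were higher and 12 lower, and by one total for all small RNA 163 and 1. Of 864 miRNAs listed, 148 had no count in any of the 6 libraries and 460 more were below 10 counts in 3 libraries, while the 256 tested held 99.6% of counts. Leaving out any library other than 16 brought the number of calls on the TMM scale down, to 31 higher and 28 lower without library 15, to 48 and 37 without library 17 and to 29 and 23, 33 and 24, and 32 and 26 without control libraries 18, 19 and 20. With library 16 alone, 46 miRNAs were higher and 46 lower, of which 25 and 35 were also called with all libraries.

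The family of miR-34 and miR-449, which is switched on in meiosis and kept in haploid cells, fell relative to other miRNAs. miR-34c-5p had 29294, 29186 and 28137 normalised counts in cKO and 83299, 84691 and 75560 in control. All 3 cKO libraries lay close together, far below control (-1.49, SE 0.07, adjusted p = 3.92e-06), and with library 16 alone the value was -1.43. Its share of miRNA counts was 17.8, 16.8 and 15.8% in cKO and 31.5, 31.7 and 29.6% in control. In CPM over all small RNA, the counts scaled to one total of the miRNA, tRNA and cluster tables, the gap was small, with 6975, 4896 and 6459 in cKO and 7577, 7304 and 7124 in control, and on that scale the change of -0.26 did not pass the test.

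Both arms of miR-34b, which is cut from the same transcript as miR-34c, moved likewise. miR-34b-3p had 1339, 1567 and 1649 normalised counts in cKO and 4297, 4179 and 3691 in control (-1.42, SE 0.15, adjusted p = 0.000326). miR-34b-5p had 2399, 3251 and 1526 against 5961, 6628 and 5420 (-1.33, SE 0.25, adjusted p = 0.00541), and miR-34c-3p had 548, 794 and 735 against 1821, 1905 and 1713 (-1.39, SE 0.19, adjusted p = 0.00126). In all of these the groups were apart, with library 17 the lowest for miR-34b-5p. Of the paralogs from other loci, 1 was called lower and 1 higher. miR-449a-5p had 5378, 9807 and 5237 against 12676, 12741 and 10906, so that library 16 came near to control, and its change of -0.83 (SE 0.24, adjusted p = 0.0241) turned to 0.33 with one total for all small RNA and missed the threshold when any of libraries 15, 17, 18 or 19 was left out. miR-449c-5p, at 9.34 to 34.4 normalised counts, was called higher (1.16, adjusted p = 0.0241) after passing the count filter through cKO, and the call was lost without any of libraries 15, 18 or 19. miR-34a-5p, a member used in many tissues, had 815, 607 and 407 against 374, 346 and 389, and its adjusted p was 0.0599. Of the 8 members tested, 1 was higher and 5 lower with a median of -1.08, against a median of 0.05 over all miRNAs, and with one total for all small RNA that median was 0.09 and none was lower.

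**Figure D1:**
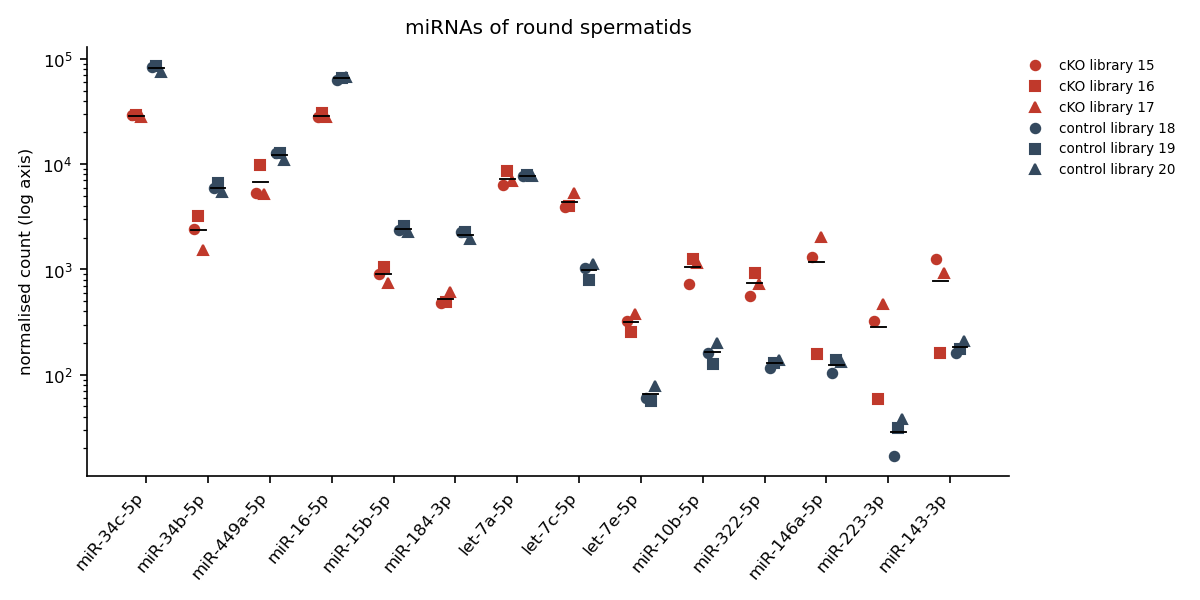
Normalised counts (log axis) of 14 miRNAs in cKO libraries (red) and control libraries (blue), with 1 symbol per library and a bar at the group mean. The 3 cKO libraries of miR-34c-5p and miR-16-5p lie together below control, while library 16 lies at control level for miR-143-3p and just above it for miR-146a-5p.

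miR-16-5p, one of the most abundant miRNAs in many cells and a brake on the cell cycle, was the second most abundant in control and level with miR-34c-5p in cKO. It had 27809, 30752 and 28141 normalised counts in cKO and 63546, 66357 and 67222 in control, so that each cKO library was far below each control library (-1.18, SE 0.07, adjusted p = 1.49e-05). With one total for all small RNA this turned to 0.03, with 5159 to 6622 CPM in cKO and 5723 to 6338 in control, ranges that overlap. Its seed partner miR-15b-5p had 905, 1048 and 736 against 2363, 2571 and 2282 (-1.42, SE 0.18, adjusted p = 0.000868). miR-322-5p, made on the X chromosome and carrying the same seed, moved the other way. It had 558, 922 and 733 normalised counts in cKO and 116, 129 and 139 in control, with library 16 the highest (2.52, SE 0.26, adjusted p = 0.000264). Of the 6 miRNAs tested with this seed, 1 was higher and 3 were lower, and the seed as a whole took 17.2 to 19.3% of miRNA counts in cKO and 25.5 to 27.8% in control.

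miR-184-3p, a single-copy miRNA known from germ cells, had 477, 491 and 614 normalised counts in cKO and 2256, 2248 and 1937 in control. All cKO libraries were at about the same low level (-2.03, SE 0.19, adjusted p = 0.000155). It was the 1 miRNA that was still lower with one total for all small RNA, at 82.3 to 141 CPM in cKO and 183 to 205 in control, a log2 fold change of -0.79.

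The cluster of miR-183, miR-96 and miR-182, one transcript of sensory and germ cells, had 3 members tested, of which 2 were lower, with a median of -1.15 that came to 0.05 with one total for all small RNA. miR-183-5p had 37.0, 47.4 and 37.1 normalised counts in cKO and 140, 114 and 135 in control (-1.68, SE 0.27, adjusted p = 0.00278). For miR-96-5p the groups overlapped, since control library 19 had 35.0 and the other two had 85.9 and 99.8, and its call (-1.15) was lost when any of libraries 15, 17, 18 or 20 was left out and turned to 0.05 with one total for all small RNA. miR-182-5p, from the same transcript, had an adjusted p of 0.0524, and library 19 was again low at 119 against 235 in both other control libraries.

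The miR-17-92 cluster and its paralogs, which promote proliferation, had 12 members tested, of which 5 were lower and 1 higher, with a median of -0.58 that came to 0.04 with the miRNA total and 0.65 with one total for all small RNA. miR-25-3p had 1721, 2043 and 2054 normalised counts in cKO and 4183, 3999 and 3791 in control (-1.04, adjusted p = 0.00126). miR-93-5p, from the same transcript as miR-25-3p, had 1816, 2118 and 1818 against 3444, 3343 and 3172 (-0.79, adjusted p = 0.00464), and miR-19b-3p had 948, 1226 and 723 against 1954, 2108 and 1745 (adjusted p = 0.0102). Each of these was apart from control in all libraries, but with one total for all small RNA they turned to 0.18, 0.42 and 0.19.

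The Sfmbt2 cluster, a large array of near-identical miRNAs in an intron of Sfmbt2, had 17 members tested, of which 10 were lower and 0 higher, with a median of -1.04 and every member below 0. Several of these copies have identical counts in all 6 libraries, since they share reads, so that there are 12 distinct profiles, 6 of them lower. miR-669a-3p had 126, 131 and 94.6 normalised counts in cKO and 289, 276 and 241 in control (-1.20, SE 0.25, adjusted p = 0.00860), and miR-466b-3p had 60.4, 54.2 and 41.9 against 121, 115 and 125 (-1.21, SE 0.27, adjusted p = 0.0102). Neither pair of ranges overlapped. Library 16 alone kept the direction, with 9 of 15 lower. Scaled by the miRNA total, however, 0 of the 17 passed in either direction, and with one total for all small RNA the median was 0.17 and miR-669a-3p and miR-466b-3p came to 0.02 and 0.01.

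The X-linked testis clusters are miRNAs of germ cells that escape the silencing of sex chromosomes in meiosis. Of 27 tested, 4 were lower (against 18.0% of all miRNAs tested) and 0 higher with a median of -0.29, and the sign of that median turned with the scale, to 0.33 with the miRNA total and 0.88 with one total for all small RNA. miR-741-3p, the most abundant, had 3181, 4226 and 2309 normalised counts in cKO and 4335, 4265 and 4457 in control, with library 16 the nearest to control and still below each control library, and did not pass the test (-0.43, adjusted p = 0.130, 0.76 with one total for all small RNA). miR-743a-3p had 964, 1273 and 761 against 1965, 1830 and 1610 (-0.85, adjusted p = 0.0177, 0.34 with one total for all small RNA), a call lost without library 15, 18 or 19. The other 3 calls, miR-880-3p, miR-883a-3p and miR-883b-3p, were each lost when any of 4 or more libraries was left out. With one total for all small RNA miR-880-3p and miR-883a-3p turned to 0.71 and 0.35, and with the miRNA total miR-880-3p turned to 0.10. Library 16 alone gave 9 higher and 4 lower of 26. Over all 44 tested miRNAs matched to the X chromosome, 9 were higher and 4 lower with a median of -0.15, which came to 0.46 with the miRNA total and 1.02 with one total for all small RNA.

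The let-7 family, which marks differentiated cells and restrains growth, rose. Of 12 members tested 9 were higher and 0 lower, with a median of 1.53. Of the 9, 3 passed the count filter through cKO, and over the 8 members that did not 6 were higher with a median of 1.24. A pair of members has identical counts, and with library 16 alone 6 of 8 were higher with a median of 1.24. let-7c-5p had 3929, 3970 and 5334 normalised counts in cKO and 1040, 787 and 1117 in control (2.17, SE 0.20, adjusted p = 0.000155). let-7e-5p had 322, 254 and 373 against 59.8, 56.0 and 79.0 (2.27, SE 0.28, adjusted p = 0.000686), and let-7f-5p had 5011, 5861 and 5891 against 1931, 1870 and 2030 (1.52, SE 0.14, adjusted p = 0.000155). In each the lowest cKO library was well above the highest control library. let-7b-5p rose by 1.96 and let-7i-5p by 0.96. let-7a-5p and let-7g-5p stood apart from these. let-7a-5p had 6321, 8531 and 6938 against 7702, 7940 and 7711, ranges that overlap (-0.10, adjusted p = 0.565), and let-7g-5p gave -0.11 (adjusted p = 0.652). Both turned to 1.10 with one total for all small RNA. As a share of miRNA counts the family took 11.9, 13.0 and 13.0% in cKO and 5.00, 4.86 and 5.25% in control.

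The Dlk1-Dio3 cluster, an imprinted array on the maternal chromosome that is active in brain, muscle and stroma, had 11 of its 56 listed miRNAs tested, of which 7 were higher and 1 was lower. All 7 that were higher reached 10 counts in at most 1 control library and so were tested because they were high in cKO. With the uncalled members of the same kind that made 9 of the 11, and of the other 2 tested, 0 were higher and 1 was lower. The levels of those that rose are a description. miR-127-3p had 43.1, 49.6 and 102 normalised counts in cKO and 5.60, 10.5 and 13.3 in control. miR-379-5p had 63.5, 83.5 and 139 against 9.34, 8.75 and 22.5. Library 16 was not apart from library 15 in either, but most members missed the count filter of the fit on library 16 alone, where 2 were tested and none passed. miR-409-3p, of the same array, was lower in cKO, at 9.07, 15.8 and 10.1 against 46.7, 40.2 and 26.6 (-1.69, SE 0.38, adjusted p = 0.0102).

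Many miRNAs of other cell types rose, some of them in libraries 15 and 17 far more than in library 16. miR-223-3p, which defines neutrophils and other myeloid cells, had 322, 58.7 and 472 normalised counts in cKO and 16.8, 31.5 and 38.3 in control (3.26, SE 0.71, adjusted p = 0.00970). miR-146a-5p, induced in activated immune cells, had 1325, 157 and 2034 against 105, 138 and 132 (3.23, SE 0.75, adjusted p = 0.0123). In both, library 16 was just above control and the other cKO libraries many times higher. With library 16 alone the changes were 0.97 and 0.35, and miR-146a-5p did not pass. miR-21a-5p, abundant in stroma and macrophages, had 3880, 3108 and 6349 against 2051, 2174 and 2221 (1.05, SE 0.25, adjusted p = 0.0125, 0.57 with library 16 alone). Without library 18 the calls of miR-21a-5p and miR-146a-5p were lost, and without library 15 that of miR-146a-5p. miR-142a-3p, of blood cells, lost its call without any one of libraries 15, 17, 18, 19 and 20. Of the 9 leukocyte miRNAs tested 5 were higher and 0 lower with a median of 1.05. Without library 18 only 1 was higher, without library 15 it was 2 of 8, without library 20 it was 3 of 8, and with library 16 alone 2 of 8 were higher and 1 lower.

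In the muscle list both tested miRNAs, miR-143-3p and miR-1a-3p, were higher, but miR-1a-3p passed the count filter through cKO and lost its call without library 19 or 20. miR-143-3p had 1259, 160 and 920 normalised counts in cKO and 162, 177 and 210 in control, so that library 16 lay below every control library. Its change of 2.09 (SE 0.61, adjusted p = 0.0258) turned to -0.18 with library 16 alone and was lost when any of libraries 15, 17, 18, 19 or 20 was left out. miR-451a, a miRNA of red blood cells, had 104, 2.26 and 34.4 against at most 9.15 in control, and none of the 3 erythroid miRNAs tested passed in edgeR (all 3 did in DESeq2 and none passed the count filter with library 16 alone). Both endothelial miRNAs were higher, miR-126a-3p by 1.03 (adjusted p = 0.0398, 0.35 with library 16 alone), a call lost without any of libraries 15, 17, 18, 19 or 20. With a library left out, the edgeR adjusted p of miR-126a-5p came to up to 0.0506, so its call did not hold in every such fit either.

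Of the 12 somatic gonad miRNAs tested, 11 of them with distinct counts, 8 were higher and 0 lower with a median of 1.69, and 5 were higher with library 16 alone. miR-10b-5p, encoded in the HoxD cluster, was not led by libraries 15 and 17. It had 728, 1249 and 1155 normalised counts in cKO and 162, 126 and 202 in control (2.67, SE 0.29, adjusted p = 0.000326). miR-202-5p, typical of Sertoli and other gonadal cells, was led by library 16 with 1473, beside 685 and 266 in libraries 15 and 17, against 304, 194 and 270, and the groups overlapped (1.65, SE 0.53, adjusted p = 0.0363). The call was lost without library 15, 18, 19 or 20, with an adjusted p of up to 0.119, again from edgeR. miR-125b-5p had 5677, 3686 and 10118 against 2026, 1699 and 2153 (1.73, SE 0.33, adjusted p = 0.00536, 0.95 with library 16 alone). miR-99a-5p, which lies in one transcript with let-7c, had 523, 292 and 1026 against 121, 117 and 138 (2.29, SE 0.43, adjusted p = 0.00535, 1.24 with library 16 alone). miR-199a-3p, of stromal cells, had 1301, 367 and 2610 against 359, 282 and 448, and its rise of 1.97 came to 0.03 with library 16 alone and was no longer called without library 15, 17, 18, 19 or 20. The part that such cells play in the let-7 and Dlk1-Dio3 changes was not tested.

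The remaining lists were mixed. Of 5 miR-200 family members tested, which keep epithelial identity, miR-200a-3p was higher at 73.3, 72.2 and 70.9 normalised counts against 43.0, 26.2 and 34.9 (1.05, adjusted p = 0.0216). miR-200c-3p was lower at 14.4, 9.03 and 11.5 against 39.2, 29.7 and 22.5 (-1.34, adjusted p = 0.0207), and each call was lost without certain control libraries. Of the miR-290-295 cluster of pluripotent and early germ cells, 1 of 9 listed miRNAs was tested and it did not pass (-0.91, 0.29 with one total for all small RNA).

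**Figure D2:**
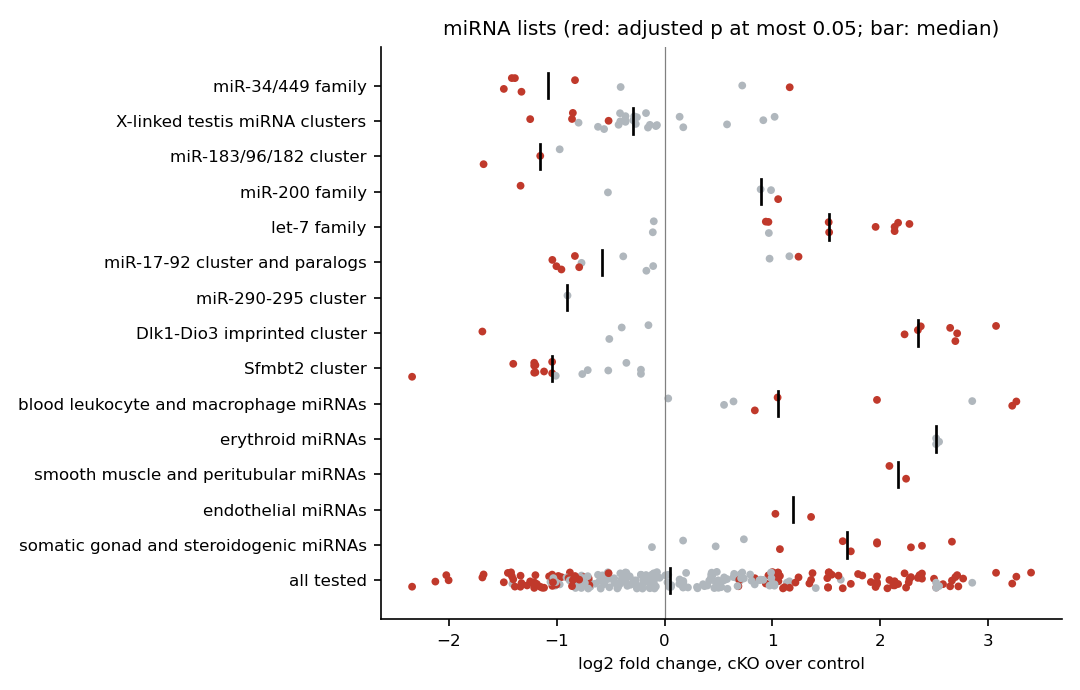
Log2 fold change of each tested miRNA (points, red where the adjusted p was at most 0.05) by list, with a bar at each list's median. The lists of miR-34 and miR-449, of the miR-183 cluster and of the Sfmbt2 cluster have medians near or below -1, the let-7, Dlk1-Dio3 and other cell type lists medians above 1 (9 of the 11 Dlk1-Dio3 members reached 10 counts in at most 1 control library), and all tested miRNAs a median of 0.05.

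Among tRNA fragments, 41 of 158 tested were called (25.9%), 22 of them higher in cKO (13.9%) and 19 lower, with a median of -0.01 over all, and 62 (39.2%) did not overlap. Fragments that rose had a median of 13.0 normalised counts in control and those that fell a median of 175. Of those that rose, 13 reached 10 counts in at most 1 control library and so passed the count filter through cKO, and without these the median was 46.3. Scaled by the tRNA total instead, 61 fragments were higher and 12 lower, and by one total for all small RNA 123 and 1. Of 284 fragments listed, 10 had no count in these libraries and 116 more were below the count filter. Without library 16, 37 were higher and 32 lower, while 14 were higher without library 19 and 12 lower without library 20. With library 16 alone, 20 were higher and 32 lower, of which 6 and 16 were among the calls made with all libraries.

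Fragments of the tRNAs for glutamate and aspartate fell. The 5′ fragment of Glu-CTC, the most abundant of all in control, had 3001, 3381 and 3418 normalised counts in cKO and 12760, 12014 and 15330 in control. The cKO libraries lay close together and far below control (-2.03, SE 0.21, adjusted p = 4.76e-06), and it took 5.70 to 6.16% of tRNA counts in cKO and 15.2 to 19.2% in control. The 5′ fragment of Asp-GTC had 2135, 1333 and 1792 against 7999, 7594 and 9048 (-2.23, SE 0.23, adjusted p = 4.76e-06). In CPM over all small RNA, these fragments were at 476 to 934 and 187 to 576 in cKO and at 1031 to 1114 and 648 to 699 in control, so that the groups stayed apart, although neither change passed the test on that scale.

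The CCA fragment of Glu-TTC showed the largest fall of any tRNA fragment. It had 300, 226 and 258 normalised counts in cKO and 2546, 2231 and 1957 in control (-3.10, SE 0.24, adjusted p = 3.35e-07), and it was the 1 fragment still lower with one total for all small RNA, at 31.8 to 81.0 CPM in cKO and 140 to 222 in control. The 5′ fragment of the same tRNA, looked at after its values were seen, fell less. It had 995, 2477 and 1104 against 3043, 3110 and 3478 (-1.08, SE 0.30, adjusted p = 0.0163), with library 16 near control, its call was lost without library 17 or 20, and it turned to 0.23 with one total for all small RNA. CCA fragments of Glu-CTC (80.1, 67.3 and 69.2 against 249, 262 and 253) and of Asp-GTC (193, 80.8 and 142 against 603, 483 and 502) fell by 1.81 and 1.92 on the log2 scale.

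By amino acid, 4 of 6 nuclear glutamate fragments and 2 of 3 aspartate fragments were lower and none was higher, with medians of -1.44 and -1.92. Together glutamate fragments took 8.61 to 11.4% of tRNA counts in cKO and 22.6 to 26.8% in control, and aspartate fragments 2.67 to 5.35% and 10.7 to 12.4%. All 3 fragments of the initiator methionine tRNA, which starts every protein, were lower, and its CCA fragment had 40.7, 67.3 and 28.9 normalised counts against 185, 163 and 177 (-1.98, SE 0.32, adjusted p = 0.000339). Both selenocysteine fragments were also lower.

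CCA fragments of Ala-TGC and Val-CAC, both abundant in control, did not pass the test. That of Ala-TGC had 3397, 2969 and 6048 normalised counts in cKO and 6200, 5235 and 4742 in control (-0.38, adjusted p = 0.309), ranges that overlap. That of Val-CAC had 2964, 4175 and 3352 against 3739, 3175 and 3217 (0.05, SE 0.22, adjusted p = 0.880). The alanine fragments are near-copies of each other, and Ala-CGC gave -0.43. On one scale for all small RNA the alanine values turned to 1.17 and 1.12.

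By end, 3 of 28 5′ fragments of nuclear tRNAs were higher and 6 lower, leaving out those that reached 10 counts in at most 1 control library, and of 47 CCA fragments 0 were higher and 8 lower. Over all 111 such nuclear fragments 4 were higher and 18 lower, so the share of CCA fragments that was lower was near that of all. With the tRNA total as scale and all fragments tested, 19 of the 5′ fragments were higher and 4 lower, and 14 CCA fragments were higher and 7 lower. The shares ran differently from the calls, since 5′ fragments took 25.4 to 27.9% of the tRNA counts tested in cKO and 37.6 to 46.0% in control, and CCA fragments 59.2 to 64.3% and 45.3 to 53.5%. The 5′ fragment of Ala-AGC had 339, 242 and 512 normalised counts in cKO and 97.3, 84.4 and 138 in control (1.77, SE 0.32, adjusted p = 0.000913). That of Gly-ACC had 135, 137 and 235 against 56.4, 58.0 and 79.9 (1.37, SE 0.31, adjusted p = 0.00403). Neither overlapped between the groups. With library 16 alone, 5 of 28 nuclear 5′ fragments were higher and 11 lower.

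Of 30 fragments of mitochondrial tRNAs tested, 18 reached 10 counts in at most 1 control library, among them 6 of the 11 called higher. Over the other 12, 5 were higher and 1 lower with a median of 0.67, beside 4 higher and 18 lower of 111 such nuclear fragments with a median of -0.20. They took 3.97, 3.73 and 2.91% of tRNA counts in cKO libraries 15, 16 and 17 and 1.55, 1.86 and 1.98% in control. The most abundant, the 5′ fragment of mitochondrial Ser-GCT, had 809, 1063 and 765 normalised counts against 465, 552 and 612 (0.69, SE 0.24, adjusted p = 0.0467), and lost its call without library 18 or 19. With library 16 alone 12 were tested, 4 were higher and 2 lower.

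**Figure D3:**
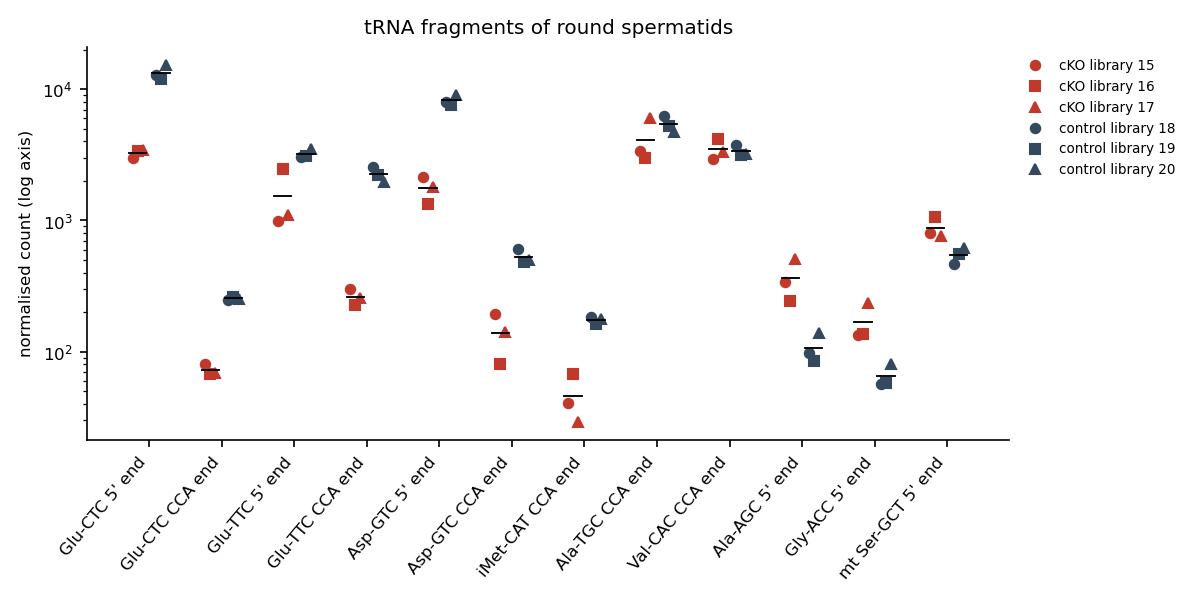
Normalised counts (log axis) of 12 tRNA fragments in cKO libraries (red) and control libraries (blue), with 1 symbol per library and a bar at the group mean. Glutamate, aspartate and initiator methionine fragments lie lower in cKO, with Glu-TTC split between its ends, while Ala-TGC and Val-CAC overlap.

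On the TMM scale, scarce piRNA clusters were mostly called higher and abundant ones mostly lower. Of 214 clusters tested, 85 were higher in cKO (39.7%) and 79 lower (36.9%) by the adjusted p alone, and 171 (79.9%) did not overlap between the groups, so that at this depth small changes passed. Of 219 names in the table, 5 had no count in these libraries. Clusters that rose had a median of 96.9 normalised counts in control and those that fell a median of 29788. With the cluster total as scale the median cluster moved from 0.05 to 0.33, so how many abundant clusters were lower depends on the scale. With the added limit of a log2 fold change of 1.5 in size, 18 clusters were higher (8.41%) and none lower (0.0%). Without library 16, 31 were higher. DESeq2 gave 17 and 0, and 166 clusters in both directions had an unadjusted edgeR p below 0.05.

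The 5 most abundant clusters of control were all lower. Together they took 22.8, 22.7 and 22.6% of cluster counts in cKO libraries 15, 16 and 17 and 25.4, 25.6 and 25.8% in control. 18-qE1-36451, the first of them, had 332550, 356748 and 347515 normalised counts in cKO and 499628, 499238 and 512111 in control (-0.54, SE 0.04, adjusted p = 1.39e-05). 2-qE1-35981, at chr2:92541142-92609144 on the plus strand, had 271580, 280877 and 262240 against 388693, 391719 and 395640 (-0.53, SE 0.04, adjusted p = 1.39e-05). 6-qF3-28913, at chr6:127796431-127841890 on the plus strand with no gene annotated on that strand, had 208240, 217218 and 216886 against 304578, 308105 and 311615 (-0.53). In these clusters the groups were tight and far apart. 12-qE-23911, at chr12:98378945-98420048 on the minus strand, changed by -0.44. 9-qC-31469, at chr9:67691252-67733786 on the minus strand, had the smallest change (-0.28, adjusted p = 0.00328), which turned to 0.01 with the cluster total as scale.

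Long RNA of the same loci, from the mRNA libraries of the same samples, was not uniformly lower. The precursor of 18-qE1-36451 had 1220, 1410 and 1782 normalised counts in cKO and 591, 829 and 618 in control (1.11, adjusted p = 0.00033), and that of 6-qF3-28913 had 1288, 1104 and 1412 against 581, 770 and 588 (0.97, adjusted p = 0.000582). Both were higher in every cKO library while their piRNAs were lower. The precursor of 2-qE1-35981 gave 0.59 (adjusted p = 0.0307), while those of 12-qE-23911 and 9-qC-31469 did not pass (-0.03 and 0.17). Over the 213 clusters with a value, 66 precursors were higher and 49 lower with a median of 0.12.

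Some clusters fell further. These were looked at after their values were seen. 10-qC1-875, at chr10:86617012-86670850 on the plus strand over the long noncoding RNA Gm48485, had 10054, 11131 and 10366 normalised counts in cKO and 27215, 27359 and 29401 in control (-1.41, SE 0.06, adjusted p = 1.55e-06). Its precursor RNA had 2187, 5146 and 2112 against 10318, 8747 and 10084 (-1.63, adjusted p = 0.000201), so that here both were lower. 3-qA2-617, at chr3:20402672-20506199 on the minus strand, had 3308, 2916 and 3372 against 8650, 8356 and 8575 (-1.41, SE 0.07, adjusted p = 2.04e-06), with a precursor at -0.45 (adjusted p = 0.0559). pi-Zmat3, over the p53 target gene Zmat3 at chr3:32334794-32365665, was the cluster named for a gene with the largest fall, with 952, 519 and 854 against 2043, 2131 and 1888 (-1.38, SE 0.19, adjusted p = 0.000461) and a precursor at -0.63 (adjusted p = 0.0291).

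Clusters named for a protein-coding gene, most of which are known to be active before pachytene, mostly rose. Of 114 such clusters 75 were higher and 15 lower with a median of 0.69, and of 100 clusters named by chromosome band 10 were higher and 64 lower with a median of -0.23. The latter sign turned with the scale, to 37 higher and 20 lower with a median of 0.06 by the cluster total, while gene-named clusters kept theirs at 88 higher and 3 lower. Library 16 alone gave 64 higher and 17 lower of the gene-named clusters, with a median of 0.47. Gene-named clusters were a minor part of the counts, 4.01, 3.59 and 3.90% in cKO and 3.57, 3.55 and 3.49% in control.

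Name and level were closely tied. At or below the median control level of 3073 normalised counts lay 97 gene-named clusters, 74 higher and 2 lower, and 10 band-named ones, 4 higher and 2 lower. Above it lay 17 gene-named clusters, 1 higher and 13 lower, and 90 band-named ones, 6 higher and 62 lower. Abundant gene-named clusters thus had a median of -0.24, next to -0.25 for abundant band-named ones. All counts and medians by level are on the TMM scale. With the cluster total as scale the median over all clusters moved from 0.05 to 0.33, so the direction of abundant clusters depends on the scale.

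All 18 clusters past the fold limit were named for genes, overlapped a protein-coding gene on their strand and were scarce, with means of 8.68 to 79.5 normalised counts in control and 43.6 to 226 in cKO. In all 18, library 16 was the lowest of the cKO libraries, and with library 16 alone 5 clusters were called higher, 4 of them among the 18. pi-Trim71, over the stem cell factor and let-7 target Trim71 at chr9:114507222-114564369 on the minus strand, had 232, 131 and 181 normalised counts in cKO and 36.3, 28.8 and 36.4 in control (2.41, SE 0.26, adjusted p = 0.000117). Its precursor had 364, 257 and 178 against 125, 167 and 140 (0.89, adjusted p = 0.00995). Both were higher in every cKO library.

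pi-Bend4, at chr5:67392150-67428120 on the minus strand, had 249, 113 and 231 normalised counts against 61.0, 63.4 and 53.3 (1.76, SE 0.30, adjusted p = 0.00119), and its precursor had 463, 573 and 556 against 301, 249 and 327 (0.86, adjusted p = 0.00224). pi-Hif1an, over the gene of an oxygen-sensing hydroxylase at chr19:44562848-44576272 on the plus strand, had 252, 176 and 251 against 88.2, 81.9 and 68.5 (1.53, SE 0.20, adjusted p = 0.000311). Its long RNA overlapped between the groups, at 2567, 4832 and 3428 against 3738, 3264 and 3695 (0.02, adjusted p = 0.943).

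**Figure D4:**
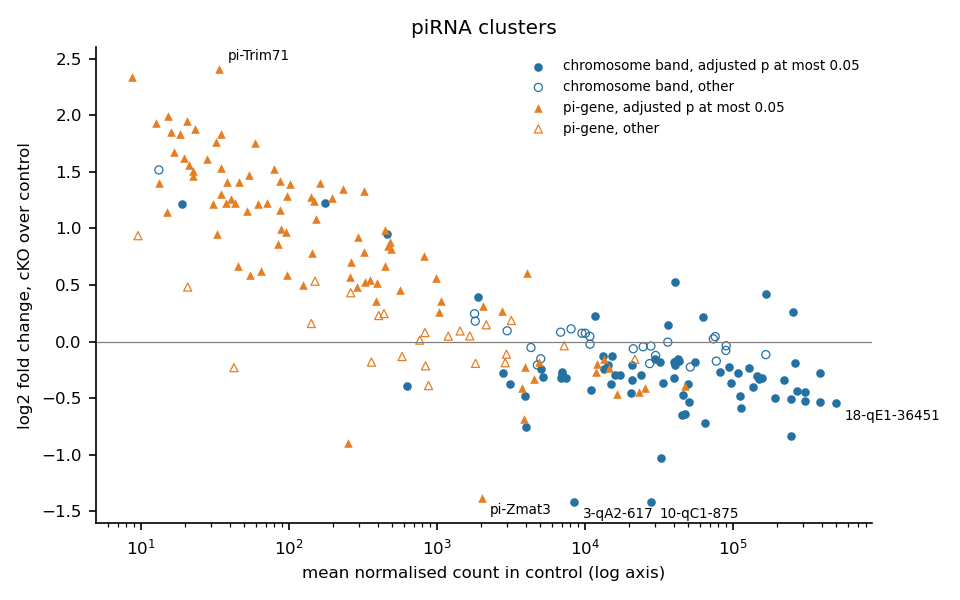
Log2 fold change of each of 214 piRNA clusters against its mean normalised count in control (log axis), for clusters named by chromosome band (circles) and for a gene (triangles), filled where the adjusted p was at most 0.05. Scarce gene-named clusters lie mostly above 0 and abundant clusters of both kinds mostly below, with pi-Trim71 the highest at 2.41. Values are on the TMM scale, and the direction of abundant clusters depends on the scale.

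Divergent clusters, a pair that is transcribed away from one shared promoter, are typical of pachytene piRNA genes. Of 14 pairs with starts within 1000 bases, both arms were lower in 9, one arm was lower and the other not called in 4, and 1 pair was called in opposite directions. With the cluster total as scale, both arms were lower in 2 and higher in 1, 4 pairs were called in opposite directions and 4 were not called in either arm, so this tally depends on the scale. The pair in opposite directions on the TMM scale, named after its values were seen, was 17-qA3-27363 (-0.19, adjusted p = 0.00393) and 17-qA3-26735 (0.42, adjusted p = 0.00275), and the first turned to 0.10 with the cluster total as scale. The core of the MYB motif, which A-MYB binds as the activator of pachytene clusters, was searched as CAGTTG on both strands in the 250 bases before and 50 after each start. It was found at 54.0% of band-named clusters and 12.3% of gene-named ones, and among all RefSeq promoter windows of that length at 13.7% (4481 of 32817). Among clusters that were lower it was found at 50.6% and among those higher at 12.9%. These shares describe the windows only, and they follow the naming of the clusters. Starts of the 14 pairs lie 39 to 181 bases apart, so the windows of both arms overlap and a site in the overlap counts for both.

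In the repeat table, where reads are summed over all genomic copies of a repeat name, 114 of 850 names tested were higher in cKO (13.4%) and 128 lower (15.1%), with a median of 0.11, and 396 (46.6%) did not overlap. Scaled by the table's total instead, 236 were higher and 68 lower, and by one total for all small RNA 248 and 61. Of 1489 names, 268 had no count here and 371 more lacked a count in at least 1 library. Without library 16, 172 were higher and 205 lower, and without control library 18, 19 or 20 the number higher was 54, 56 or 57. On the TMM scale, as for the clusters, names that rose were scarce, with a median of 71.7 normalised counts in control, and those that fell were abundant, with a median of 2792. Repeat counts per 100 cluster counts were 23.2, 24.5 and 23.1 in cKO and 22.6, 22.6 and 22.7 in control. A read in a cluster can also be counted in a repeat, so these tables are not independent.

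The 5 most abundant names in control were old, dispersed elements or a retroviral fragment, and all were lower. L2c, a LINE without active copies, had 47977, 46734 and 46948 normalised counts in cKO and 59234, 59212 and 58546 in control (-0.32, SE 0.04, adjusted p = 0.000772). L1M2, an old L1, had 36558, 32208 and 34262 against 54817, 57986 and 60364 (-0.75, SE 0.06, adjusted p = 0.000200). The others, MIRc, MIRb and MurERV4_19-int, changed by -0.42, -0.46 and -0.43. Each was apart from control in every library on the TMM scale. Under other settings all stayed below 0, but came as near to it as -0.03 for L2c and -0.46 for L1M2. MIRc, MIRb and MurERV4_19-int came to -0.13, -0.17 and -0.14. As a share of the repeat counts tested, the L2 family took 5.985, 5.738 and 5.806% in cKO and 5.783, 5.79 and 5.675% in control. All 4 MIR elements tested, a family of ancient SINEs, were lower with a median of -0.44, and 2 were lower when the table's total was the scale.

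L1 elements, the main autonomous retrotransposons, had 109 names tested, of which 11 were higher and 28 lower with a median of -0.10. With the table's total as scale this was 21 and 17 with a median of 0.16, so their direction depends on the scale. L1Md_F, a mouse L1 family, had 1013, 658 and 1259 normalised counts in cKO and 3357, 3161 and 3126 in control (-1.72, SE 0.21, adjusted p = 0.000772), and its long RNA gave -0.14 (adjusted p = 0.301). L1ME4c, an old L1, had 236, 173 and 175 against 620, 728 and 685 (-1.80, SE 0.16, adjusted p = 0.000212). Neither overlapped between groups.

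Endogenous retroviruses were called in both directions, at shares to be read against 13.4% higher and 15.1% lower over all repeats. ERV1 had 17 higher and 6 lower of 75 with a median of 0.23, ERVK 35 and 29 of 235 with 0.17, ERVL 9 and 10 of 60 with 0.22, and ERVL-MaLR 17 and 17 of 84 with -0.01. MER52-int, an ERV1 interior, was abundant and lower, with 5884, 1748 and 4993 normalised counts in cKO and 14070, 14009 and 14104 in control (-1.74, SE 0.37, adjusted p = 0.0107). Library 16 was far the lowest, the control libraries nearly equal, and the long RNA of this element gave 0.54 (adjusted p = 0.0530). RLTR20B2, an ERVK terminal repeat, had 82.0, 49.4 and 80.3 against 328, 322 and 375 (-2.27, SE 0.20, adjusted p = 0.000213), and RLTR44A changed by -1.59 (adjusted p = 0.00389).

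Interiors of 2 IAP elements, ERVK members that still move in mice and are classic piRNA targets, rose. IAPEz-int had 2327, 3555 and 2227 normalised counts in cKO and 1217, 1047 and 1206 in control (1.22, SE 0.18, adjusted p = 0.00184), and IAPEy-int had 412, 272 and 358 against 116, 141 and 172 (1.27, SE 0.20, adjusted p = 0.00286). All cKO libraries were above all control libraries, with library 16 the highest for the first and the lowest for the second. Long RNA of these elements did not pass the test (-0.12, adjusted p = 0.631, and -0.21, adjusted p = 0.636). RLTR10B2, an ERVK terminal repeat, had 383, 629 and 445 against 160, 134 and 133 (1.78, SE 0.20, adjusted p = 0.000673), and its long RNA was also higher (1.02, adjusted p = 0.0204). RLTR1B-int, an ERV1 interior, had 216, 157 and 193 against 70.7, 93.0 and 59.7 (1.36, adjusted p = 0.00224) while its long RNA was lower (-0.76, adjusted p = 0.000615). Over all 1012 repeat names tested in long RNA, 30 were higher and 441 lower with a median of -0.43.

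Charlie19a, an old DNA transposon, had the largest fall among repeats with a mean above 100, with 221, 156 and 171 normalised counts in cKO and 1030, 1076 and 1061 in control (-2.53, SE 0.15, adjusted p = 0.000114). HY1, the name of a Y RNA that binds the Ro protein, had 595, 203 and 744 against 184, 163 and 183 (1.54, SE 0.41, adjusted p = 0.0248), so that library 16 was close to control. It came to 0.18 with library 16 alone and lost its call without any of libraries 15, 17, 18, 19 or 20. The simple repeat (CAAA)n had 1122, 2108 and 916 against 574, 582 and 631 (1.21, adjusted p = 0.0149), a call lost without library 18, 19 or 20. Simple repeats as a class had 3 higher (3.41%) and 11 lower (12.5%) of 88, and Alu-type SINEs, B1 in the mouse, 2 higher (12.5%) and 0 lower of 16. Their medians were 0.09 and 0.11. Over all repeats 13.4% were higher and 15.1% lower.

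**Figure D5:**
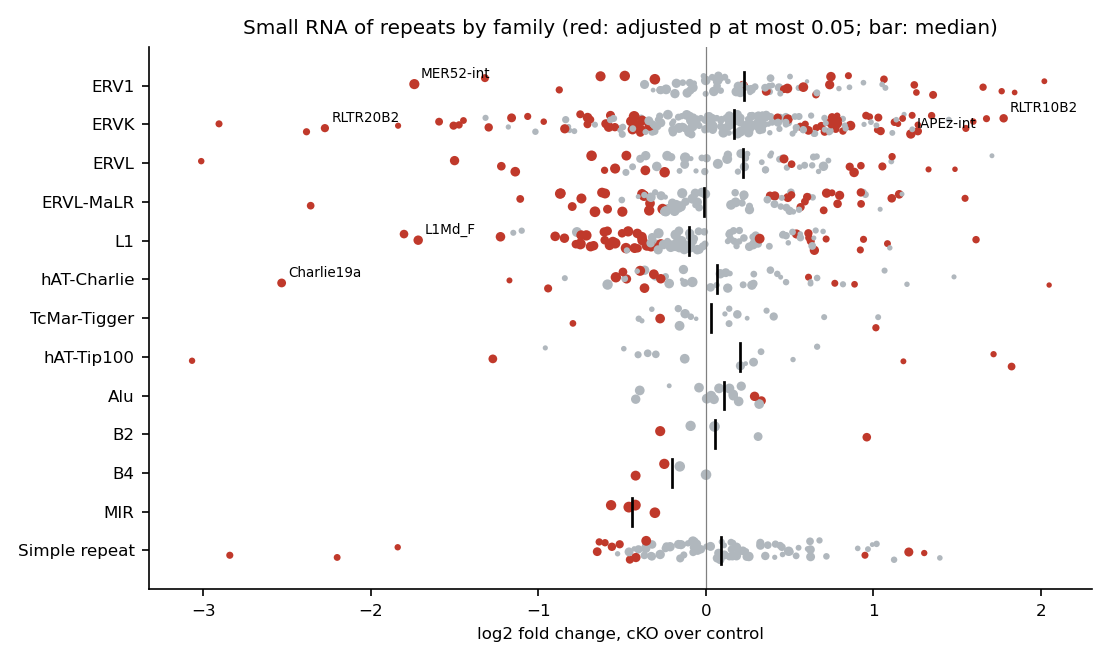
Log2 fold change of small RNA for each tested repeat name (points, larger for more counts, red where the adjusted p was at most 0.05) in 13 families, with a bar at each family's median. Of the families shown, MIR has its 4 names all below 0, and single names such as Charlie19a and RLTR10B2 lie far out.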

How the data were processed

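The authors enriched round spermatids on BSA gradients, made libraries with the QIAseq miRNA kit and sequenced single reads. Per the study's methods, SPORTS assigned reads to miRNAs of miRBase and tRNA fragments of GtRNAdb, and HISAT2 2.1.0 with featureCounts assigned them to piRNA clusters and RepeatMasker repeats of mm10. Whether the kit's molecular tags were used to merge copies of one molecule is not given in the sources used here. The deposited miRNA and tRNA tables hold raw counts, with blanks read as 0. The deposited cluster and repeat tables, and that of long precursor RNA, hold expected counts shared among matches, which were rounded. The long RNA of repeats was deposited as counts. The authors used DESeq2 for their comparisons.

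Here edgeR 4.0.16 (TMM within a table, quasi-likelihood test, two-sided) in R 4.3.3 was fitted to the 6 libraries with Benjamini-Hochberg adjustment over each table. miRNAs and tRNA fragments needed 10 counts in at least 3 libraries, and clusters and repeats 1 in every library. Calls were made at adjusted p-values up to 0.05, for clusters with a log2 fold change of 1.5 in size where stated. DESeq2 1.42.0, other scales, filters and left-out libraries were alternatives. Python 3.11.15 did the rest. Gene overlaps are from GENCODE vM21, and repeat families from the names in the long RNA table. On simulated counts, changes of 2 on the log2 scale were recovered for 84.0% of 256 miRNAs' changed set, 87.5% of tRNA fragments, 100% of clusters and 91.7% of repeats, and changes of 1 for 34.6, 56.2, 90.9 and 70.9%. The changed sets held 51, 32, 43 and 170 features, split between both sizes. The simulation gave both groups the same spread and balanced rises with falls. It thus does not cover the wider spread among cKO libraries or a shift of a whole table.

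Named features are members of the miRNA lists, the 6 highest and 6 lowest called features with a mean of at least 100 and no overlap, and the 5 most abundant, unless said otherwise. Members and lists were chosen with earlier results of these data known. The tables' columns give groups but not which labelled replicate they are. The study calls the libraries biological replicates, and p-values measure the spread between them. Some entries (18 miRNAs and 4 tRNA fragments) have counts identical to another entry's, since they share sequences, and were kept. The sequence of one tRNA is not reported here.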

Additional observations from a re-analysis of the deposited data

How the results depend on the processing

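No paired analysis was possible because the columns carry no replicate number that the labels give. Of 2015 repeated values for 174 features, 1574 kept their direction and their side of the threshold, 200 lost a call, 98 gained one and 143 turned in direction, of which 54 were called before or after the turn. Turns are given below for the features named in the text. The cause of these changes was not tested, except that leaving out a library leaves fewer samples by construction.

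With the table's total as scale, 112 miRNAs were higher and 12 lower, 61 tRNA fragments higher and 12 lower, 41 clusters higher, and 236 repeats higher and 68 lower. With one total for all small RNA, the counts were 163 and 1 for miRNAs, 123 and 1 for tRNA fragments, 35 higher for clusters, and 248 and 61 for repeats. The table's total turned let-7a-5p and let-7g-5p to 0.51, miR-741-3p to 0.19, miR-880-3p to 0.10, the CCA fragments of Ala-CGC and Ala-TGC to 0.11 and 0.16, 17-qA3-27363 to 0.10 and 9-qC-31469 to 0.013. One total for all small RNA turned let-7a-5p and let-7g-5p to 1.10, miR-16-5p to 0.032, miR-19b-3p to 0.19, miR-25-3p to 0.18, miR-93-5p to 0.42, miR-96-5p to 0.052, miR-182-5p to 0.28, miR-449a-5p to 0.33, miR-466b-3p to 0.013, miR-669a-3p to 0.016, miR-741-3p to 0.76, miR-743a-3p to 0.34, miR-880-3p to 0.71, miR-883a-3p to 0.35, the CCA fragments of Ala-CGC and Ala-TGC to 1.12 and 1.17, the 5′ fragment of Glu-TTC to 0.23 and 17-qA3-27363 to 0.076.

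With no filter on low counts, 102 miRNAs were higher. With a log2 fold change of 1.5 in size also required, 45 miRNAs were higher and 6 lower, 13 tRNA fragments higher and 10 lower, and 15 repeats higher and 18 lower. By the adjusted p alone, 85 clusters were higher and 79 lower. With library 16 alone against control, an alternative chosen after seeing the data, 32 tRNA fragments were lower, 5 clusters higher and 3 lower, and miR-143-3p came to -0.18, let-7a-5p to 0.17 and let-7g-5p to 0.15. With at least 1 count required in every library the CCA fragment of Val-CAC came to -0.026.

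Leaving out 1 library turned 3 of these, none of them called, let-7a-5p (-0.13 to 0.047), let-7g-5p (-0.17 to 0.056) and the CCA fragment of Val-CAC (-0.040 to 0.24). With each library left out in turn, 29 to 75 miRNAs were higher and 23 to 62 lower, 14 to 37 tRNA fragments higher and 12 to 32 lower, 13 to 31 clusters higher and 0 to 1 lower, and 54 to 172 repeats higher and 92 to 205 lower. The highest counts all came without library 16, other than the 1 lower cluster, which came without library 15. On simulated counts, changes of 1 on the log2 scale were recovered for 34.6% of the changed miRNAs and 56.2% of the changed tRNA fragments, so many changes of that size would be missed in these tables.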
